A study of Mus musculus with 16 samples.

Results

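The genes described here carry glucose into the retina, break it down to pyruvate and lactate, and move lactate and pyruvate across cell and mitochondrial membranes. There were 34 members, chosen by name, with earlier results of these data known. They were 7 genes of glucose and lactate transport (Slc2a1, Slc2a3, Slc16a1, Slc16a3, Slc16a7, Slc16a8 and Bsg), the glycolytic enzyme genes from hexokinase to pyruvate kinase, the regulators Pfkfb2 and Pfkfb3, the lactate dehydrogenase genes Ldha and Ldhb, and the genes that govern the entry of pyruvate into mitochondria. A probe set annotated to a single symbol was found for 30 of the 34, and 28 of those were tested because they passed a filter of log2 4 on 2 or more arrays. Of all genes in the series, 18193 had such a probe set and 10916 were tested. Slc16a7 and Pdk4 stayed below the filter on all 16 arrays, with highest log2 intensities of 2.70 and 2.30. Gapdh had probe sets annotated to several symbols, and Eno1, Gpi1 and Mpc2 were not matched in the annotation used, so these 4 genes have no value here.

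Photoreceptors use glucose at a high rate and turn much of it into lactate even when oxygen is present. Glucose enters through facilitative transporters of the Slc2 family, of which Slc2a1 encodes GLUT1. Lactate crosses membranes with a proton through the monocarboxylate transporters of the Slc16 family, and several of these reach the plasma membrane only together with basigin, the product of Bsg. Nxnl1 gives rise to RdCVF, a survival factor for cones that resembles thioredoxins and comes from photoreceptors. Its short form binds a retinal form of basigin that associates with GLUT1 on cones and promotes glucose uptake there. Within the cell, phosphofructokinase is the main point of control, pyruvate kinase closes the pathway, and pyruvate dehydrogenase, held in check by the Pdk kinases, decides how much pyruvate is oxidised.

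RNA was measured on 16 Affymetrix 3' expression arrays, each from retina of BALB/c mice aged 11 to 16 weeks, of both sexes, raised under a cycle of 50 lux light and darkness. The mice lacked Nxnl1 on both alleles (Nxnl1-/-) or were wild type for it (Nxnl1+/+), and all spent 16 h in darkness, 1 h under white fluorescent lamps and a further 24 h in darkness. Nxnl1-/- retinas were measured after 50 lux (3 arrays), 2500 lux (3 arrays) and 5000 lux (2 arrays), and Nxnl1+/+ retinas after 50 lux (2 arrays), 2500 lux (3 arrays) and 5000 lux (3 arrays). The neural retina was dissected away from the retinal pigment epithelium before RNA was taken. The labels call the arrays biological replicates but do not say how many animals gave RNA to each. Exposure to 50 lux, the light level of the housing, served as the low-light reference, so both bright doses of a genotype are compared with the same 50 lux arrays. Values are log2 of the deposited intensities, each gene at its brightest single-symbol probe set, and levels are compared between arrays for a gene but never between genes.

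Nxnl1 itself followed the labels: its brighter probe set lay between 2.21 and 2.92 on the 8 Nxnl1-/- arrays and between 5.64 and 7.61 on the 8 Nxnl1+/+ arrays. Rod markers were present on all arrays at high level. Some arrays stood apart by markers of neighbouring tissue. The summed level of the pigment epithelium list was highest on the array numbered 1 of each 50 lux group, at 14.04 in Nxnl1-/- and 14.14 in Nxnl1+/+ retinas, against 12.21 to 13.73 on the other 14 arrays. Best1 and Slc26a4 of that list were at the lowest value of the series on every array. The summed lens list reached 16.22 on the Nxnl1+/+ 5000 lux array numbered 2, was 12.65 and 12.18 on the arrays numbered 2 of Nxnl1-/- retinas at 2500 and 5000 lux, lay between 10.81 and 12.78 on the 3 Nxnl1-/- 50 lux arrays and at 5.85 and 7.39 on the Nxnl1+/+ 50 lux arrays. Results that rest on such arrays are given with and without them, with 1 exception. The 3 Nxnl1-/- 50 lux arrays make up their whole group, so they could not all be left out for their lens sums. The other Nxnl1-/- bright-light arrays had lower lens sums, 7.61 and 7.48 at 2500 lux and 6.51 at 5000 lux. The part of lens RNA in the Nxnl1-/- light changes was not tested.

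The start regions of 4 members are shown because their light responses differ: Slc16a1 and Pfkfb2 fell, Pdk3 rose, and Slc2a1 was not called. They are the 250 bases before 1 annotated start site of each gene, from RefSeq on the build GRCm38.p6, written 5′ to 3′ on the gene's strand. The windows lie at chr3:104638414-104638663 (plus strand) for Slc16a1, chr1:130715822-130716071 (minus strand) for Pfkfb2, chrX:93832151-93832400 (minus strand) for Pdk3 and chr4:119108495-119108744 (plus strand) for Slc2a1. Where a gene had several start sites, the site at the 5′ end of the RefSeq gene was used, or else the first listed. Among the genes compared below, Pfkfb2 had 3 start sites and Pkm and Pdk2 had 2 each. Matches before their other start sites were not counted. Capitals mark ACGTG or GCGTG on either strand, the core letters to which hypoxia-inducible factors, regulators of many glycolysis genes, are known to bind.
Slc16a1: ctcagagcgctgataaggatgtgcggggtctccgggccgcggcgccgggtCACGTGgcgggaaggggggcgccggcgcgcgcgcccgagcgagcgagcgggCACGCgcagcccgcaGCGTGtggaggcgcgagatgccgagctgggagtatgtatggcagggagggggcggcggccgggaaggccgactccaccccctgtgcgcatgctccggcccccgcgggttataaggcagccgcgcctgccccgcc
Pfkfb2: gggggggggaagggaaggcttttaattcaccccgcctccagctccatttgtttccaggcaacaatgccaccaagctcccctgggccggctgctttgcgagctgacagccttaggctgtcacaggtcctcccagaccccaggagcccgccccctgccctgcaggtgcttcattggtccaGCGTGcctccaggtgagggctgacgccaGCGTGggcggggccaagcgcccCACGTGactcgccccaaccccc
Pdk3: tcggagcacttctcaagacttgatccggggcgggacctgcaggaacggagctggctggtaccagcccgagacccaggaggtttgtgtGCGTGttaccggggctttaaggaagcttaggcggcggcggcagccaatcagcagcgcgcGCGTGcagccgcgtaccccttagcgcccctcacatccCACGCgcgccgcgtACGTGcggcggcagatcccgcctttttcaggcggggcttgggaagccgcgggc
Slc2a1: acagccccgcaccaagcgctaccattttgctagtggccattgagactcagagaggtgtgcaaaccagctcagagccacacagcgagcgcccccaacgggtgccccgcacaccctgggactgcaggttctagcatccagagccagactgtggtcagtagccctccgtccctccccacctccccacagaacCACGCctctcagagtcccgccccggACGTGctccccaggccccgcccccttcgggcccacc
A palindromic CACGTG holds the letters once on each strand. Counted so, Slc16a1, Pfkfb2 and Pdk3 each had 4 matches and Slc2a1 had 2. The other members that fell and have a window had fewer than Pdk3, the gene that rose. They had 2 (Slc16a3 and Pdk2), 1 (Ldhb) or 0 (Slc16a8, Eno2 and Pkm). A window was found for 31 of the 34 members, with none for Slc2a3, Bsg and Slc16a7. Of these, 24 (77.4%) held the letters, beside 38.6% of all 32851 windows of the same length and 44% of the 21263 windows of protein-coding genes. The members' windows were also richer in G and C, with a median of 62.4% against 55.6% for protein-coding windows, and the letters searched are themselves rich in them. TAATCC, the core bound by the photoreceptor factor CRX, was present in 2 of the 31 windows (6.45%), beside 6.25% of all windows. These matches describe letters in a window and not binding.

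After bright light the lactate transporter genes and basigin fell, the regulator Pfkfb2 fell most among the members tested, and most enzymes of the pathway moved little. Averaged over both genotypes and both bright doses, 10 of 28 members fell and 1 rose past an adjusted p of 0.05 (limma, Benjamini-Hochberg over all 23320 probe sets), where over all probe sets tested 15.1% fell and 13.7% rose. The 10 were Pfkfb2, Slc16a8, Slc16a1, Slc16a3, Pdk2, Bsg, Ldhb, Eno2, Slc2a3 and Pkm, and the 1 that rose was Pdk3. The members' median change was -0.16 on the log2 scale against -0.01 for all probe sets, and 21 of the 28 had a negative change. By role, 5 of 6 transport genes fell, 2 of 12 glycolytic enzymes fell, 1 of 2 Pfkfb genes fell, 1 of 2 lactate dehydrogenase genes fell, and of 6 genes of pyruvate entry 1 rose and 1 fell. With both 50 lux arrays numbered 1 left out, an alternative chosen after seeing the data, 4 members were called, namely Slc16a1, Pkm, Pfkfb2 and Pdk3. Without the Nxnl1+/+ 5000 lux array with the highest lens sum 10 were called, all but Ldhb (adjusted p = 0.060). Without all 3 bright-light arrays whose lens sum was over log2 10, again chosen after seeing the data, 7 were called, and Slc2a3, Slc16a3, Ldhb and Pdk2 were not (adjusted p = 0.10, 0.061, 0.15 and 0.059).

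**Figure D1:**
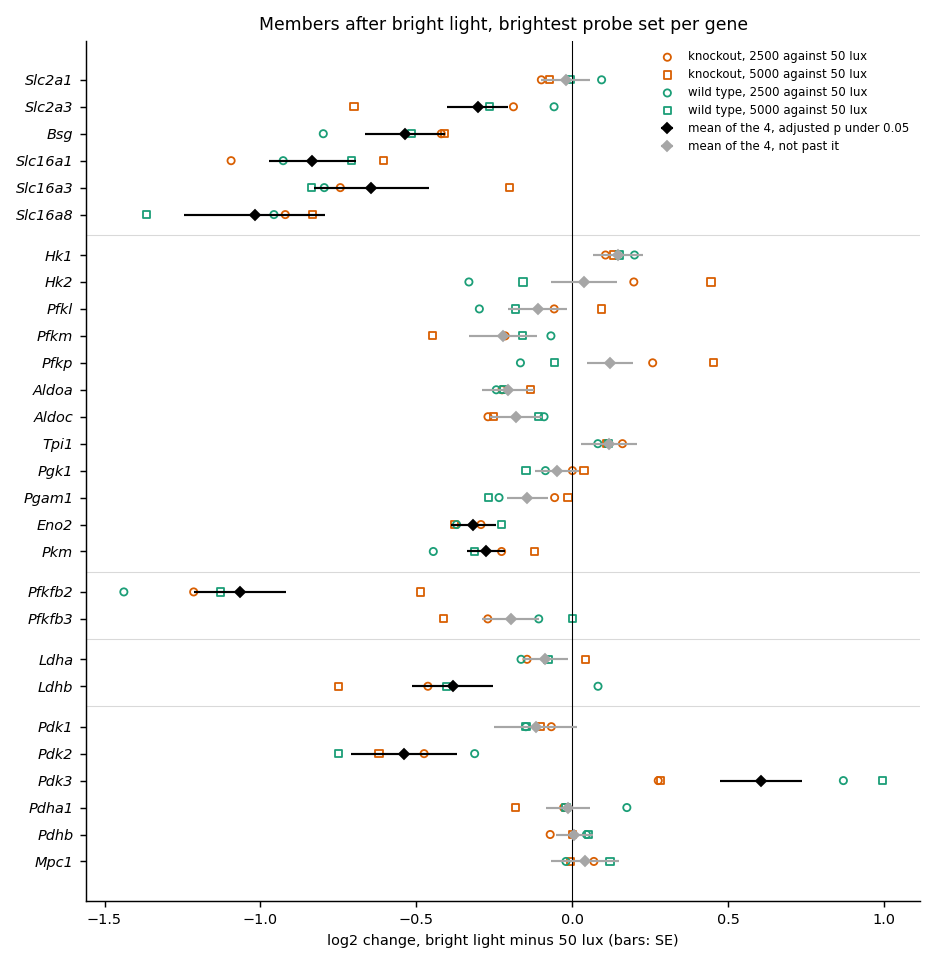
Log2 change of each of the 28 tested members, bright light minus 50 lux, grouped from top to bottom as transport, glycolytic enzymes, Pfkfb genes, lactate dehydrogenase and pyruvate entry. Open symbols are the 4 single comparisons, and diamonds with bars are their mean ± SE from the limma fit, black where adjusted p was under 0.05. Slc16a1, Slc16a8 and Pfkfb2 lie left of 0 in all 4 comparisons, Pdk3 lies right of 0, and Slc2a1 stays within -0.10 and 0.09.

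Slc16a1 encodes MCT1, a proton-coupled lactate transporter of photoreceptors and glia. In Nxnl1-/- retinas Slc16a1 measured 12.81, 12.88 and 12.86 at 50 lux, 11.95, 11.71 and 11.60 at 2500 lux, and 12.52 and 11.96 at 5000 lux. Slc16a1 in Nxnl1+/+ retinas measured 12.85 and 12.79 at 50 lux, 12.42, 11.70 and 11.56 at 2500 lux, and 12.32, 12.14 and 11.88 at 5000 lux. All 11 bright-light arrays lay below all 5 arrays at 50 lux. The mean change was -0.83 ± 0.14 (SE), which is 1.78-fold lower (adjusted p = 0.00062), and it kept its call whichever array was left out. In single comparisons the fall was called at 2500 lux in both genotypes, by 1.09 in Nxnl1-/- (adjusted p = 0.0024) and by 0.93 in Nxnl1+/+ retinas (adjusted p = 0.020). At 5000 lux the changes of -0.61 and -0.71 were not called (adjusted p = 0.10 and 0.073), although the groups did not overlap in either genotype.

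Bsg encodes basigin, the partner that brings MCT1 to the membrane and, in its retinal form, the receptor for the short Nxnl1 product. Bsg was at 11.80, 11.71 and 11.63 in Nxnl1-/- retinas at 50 lux, at 11.37, 11.27 and 11.23 at 2500 lux, and at 11.64 and 10.96 at 5000 lux. Bsg in Nxnl1+/+ retinas measured 11.89 and 11.93 at 50 lux, 11.47, 10.71 and 11.16 at 2500 lux, and 11.59, 11.25 and 11.35 at 5000 lux. Of the 11 bright-light arrays, 10 lay below every 50 lux array, the exception being the first Nxnl1-/- array at 5000 lux. Its mean change was -0.54 ± 0.13, or 1.45-fold lower (adjusted p = 0.0067). It was called alone in Nxnl1+/+ retinas at 2500 lux, where it was -0.80 (adjusted p = 0.027). Without both 50 lux arrays numbered 1 the mean change was -0.53 (adjusted p = 0.056). The probe set measures Bsg as a whole, so the retinal and the common form are not told apart.

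Slc2a1 encodes GLUT1, the main glucose transporter of the retina and the one linked to basigin on cones. On the Nxnl1-/- arrays Slc2a1 stood at 12.34, 12.14 and 12.13 after 50 lux, 12.23, 12.01 and 12.08 after 2500 lux, and 12.23 and 12.03 after 5000 lux. Slc2a1 in Nxnl1+/+ retinas measured 12.08 and 12.25 at 50 lux, 12.37, 12.09 and 12.32 at 2500 lux, and 12.32, 12.10 and 12.06 at 5000 lux. The bright-light arrays ran from 12.01 to 12.37 and the 50 lux arrays from 12.08 to 12.34, so the groups overlapped, with 4 of 11 bright-light arrays below and 1 above every 50 lux array. On average it changed by -0.02 ± 0.08, with a 95% interval of -0.19 to 0.15 (adjusted p = 0.87). The gene's other tested probe sets gave -0.07 (adjusted p = 0.53) and -0.35 (adjusted p = 0.018), so 1 of 3 was called lower. Which transcript ends each probe set reads was not tested.

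Slc2a3 encodes GLUT3, the glucose transporter typical of neurons. The Slc2a3 values in Nxnl1-/- retinas were 10.64, 10.42 and 10.42 at 50 lux, 10.21, 10.36 and 10.35 at 2500 lux, and 9.96 and 9.63 at 5000 lux. Slc2a3 in Nxnl1+/+ retinas measured 10.23 and 10.08 at 50 lux, 9.98, 10.19 and 10.12 at 2500 lux, and 10.22, 9.64 and 9.81 at 5000 lux. The 4 lowest values were at 5000 lux, 2 in each genotype, while the Nxnl1+/+ 5000 lux array numbered 1 lay above all Nxnl1+/+ arrays at 2500 lux. Averaged over the 4 comparisons it changed by -0.30 ± 0.10, or 1.23-fold lower (adjusted p = 0.033). The largest single change was -0.70 in Nxnl1-/- retinas at 5000 lux (1.62-fold lower, adjusted p = 0.016), where the gene's other 2 probe sets gave -0.66 (adjusted p = 0.032) and 0.02 (adjusted p = 0.99). For the mean of the 4 comparisons these 2 gave -0.23 (adjusted p = 0.13) and 0.30 (adjusted p = 0.61), the second from a probe set near the filter at log2 4. With the probe sets of a gene averaged, neither Slc2a3 change was called, at -0.44 in Nxnl1-/- retinas at 5000 lux (adjusted p = 0.30) and -0.08 in the mean (adjusted p = 0.75). The mean call held in 9 of 16 fits that each left out 1 array, with adjusted p reaching 0.16 without the Nxnl1+/+ 50 lux array numbered 1 and 0.25 without both 50 lux arrays numbered 1.

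Slc16a8 encodes MCT3, a lactate transporter that in the eye marks the basolateral membrane of the pigment epithelium. In Nxnl1-/- retinas Slc16a8 measured 6.57, 5.65 and 5.59 at 50 lux, 5.21, 4.91 and 4.91 at 2500 lux, and 5.07 and 5.14 at 5000 lux. Slc16a8 in Nxnl1+/+ retinas measured 6.97 and 5.62 at 50 lux, 5.14, 5.005 and 5.88 at 2500 lux, and 4.91, 4.72 and 5.16 at 5000 lux. The highest values were on the array numbered 1 of each 50 lux group, the same arrays that had the highest summed pigment epithelium level. The mean change was -1.02 ± 0.23, or 2.03-fold lower (adjusted p = 0.0043). It was -0.68 without the Nxnl1+/+ 50 lux array numbered 1 (adjusted p = 0.047) and -0.52 without both 50 lux arrays numbered 1 (adjusted p = 0.059). In Nxnl1+/+ retinas at 5000 lux the change of -1.37 (adjusted p = 0.033) became -0.69 without the 50 lux array numbered 1 and was not called. The call was also lost without any 1 of the 3 Nxnl1+/+ 5000 lux arrays. The change was -1.26 without the array with the highest lens sum (adjusted p = 0.090). It was -1.36 and -1.48 without those numbered 1 and 3 (adjusted p = 0.072 and 0.057). Over the pigment epithelium list, 8 of 10 tested markers fell and 1, Trpm1, rose, with a median of -0.90. Rpe65, the isomerase of the visual cycle, was 4.22-fold lower and Stra6, a retinol receptor, 1.87-fold lower. Rpe65 was over the filter on all 16 arrays. Stra6 ran from 2.46 to 4.90 and was over it on only 3, so its change lies near the lowest values. Trpm1 ran from 3.37 to 6.49 and was over the filter on 9 of the 16 arrays, so part of its range also lies near them. The list's summed level ran from 12.21 to 13.73 after bright light against 13.14 to 14.14 at 50 lux. The part of pigment epithelium RNA in the Slc16a8 result was not tested.

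Slc16a3 encodes MCT4, a transporter suited to lactate export from highly glycolytic cells. Slc16a3 was at 5.71, 4.73 and 4.96 in Nxnl1-/- retinas at 50 lux, at 3.98, 4.46 and 4.72 at 2500 lux, and at 4.98 and 4.88 at 5000 lux. Slc16a3 in Nxnl1+/+ retinas measured 5.65 and 5.66 at 50 lux, 4.78, 4.88 and 4.93 at 2500 lux, and 5.31, 4.89 and 4.26 at 5000 lux. Several of its values lay close to the filter at log2 4. The groups overlapped, with 4 bright-light arrays below every 50 lux array. Its mean change was -0.64 ± 0.18, or 1.56-fold lower (adjusted p = 0.019), and no single comparison was called. The call was lost without either Nxnl1+/+ 50 lux array (adjusted p = 0.073 and 0.064). The change became -0.50 without both 50 lux arrays numbered 1 (adjusted p = 0.12).

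**Figure D2:**
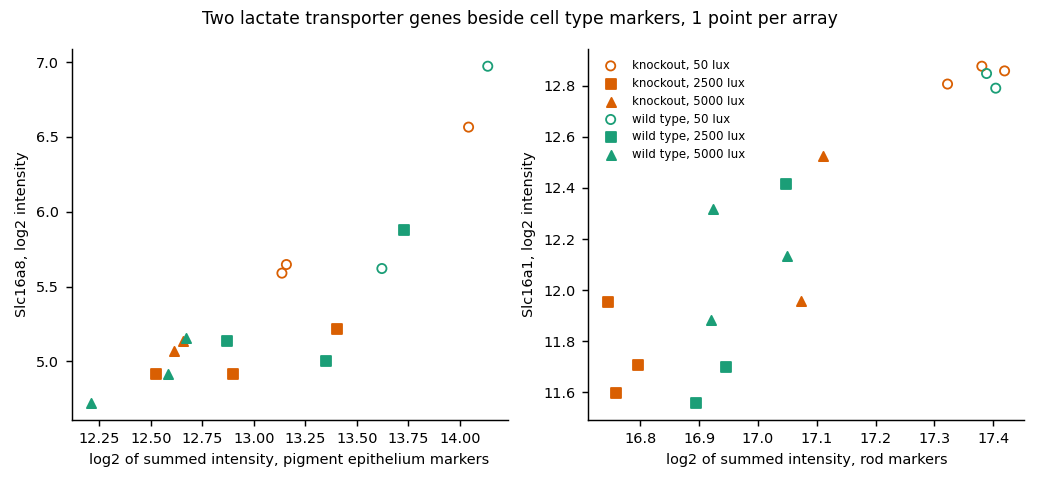
Log2 intensity of Slc16a8 against the log2 summed intensity of the pigment epithelium markers (left), and of Slc16a1 against that of the rod markers (right), 1 point per array, with colour for genotype and symbol for dose. The 2 highest Slc16a8 values, 6.97 and 6.57, sit at the 2 highest pigment epithelium sums, while for Slc16a1 the 5 arrays at 50 lux stand together at the top right.

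Among the 12 glycolytic enzymes, 2 fell and 10 were not called, and their median change was -0.13. The 2 were Pkm and Eno2. Pkm encodes the pyruvate kinase that makes pyruvate in the last step. On the Nxnl1-/- arrays Pkm stood at 13.10, 13.08 and 13.14 after 50 lux, 12.81, 12.94 and 12.90 after 2500 lux, and 12.97 and 13.002 after 5000 lux. Pkm in Nxnl1+/+ retinas measured 13.28 and 13.20 at 50 lux, 12.88, 12.65 and 12.85 at 2500 lux, and 12.97, 12.94 and 12.87 at 5000 lux. Every bright-light array lay below every 50 lux array. The change was small, -0.28 ± 0.06 or 1.21-fold lower (adjusted p = 0.0036), and the single comparisons ran from -0.12 to -0.45, called only in Nxnl1+/+ retinas at 2500 lux (adjusted p = 0.010). The mean change held its call in all 16 fits that left out 1 array. The Nxnl1+/+ call at 2500 lux held in 15 of them and was lost without the 50 lux array numbered 1, at -0.40.

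Eno2 encodes the neuronal enolase, which forms phosphoenolpyruvate. The Eno2 values in Nxnl1-/- retinas were 12.56, 12.31 and 12.46 at 50 lux, 12.08, 12.15 and 12.21 at 2500 lux, and 12.16 and 11.97 at 5000 lux. Eno2 in Nxnl1+/+ retinas measured 12.38 and 12.22 at 50 lux, 12.07, 11.76 and 11.95 at 2500 lux, and 12.15, 12.06 and 12.01 at 5000 lux. Again the 11 bright-light arrays all lay below the 5 arrays at 50 lux. On average it changed by -0.32 ± 0.07, or 1.25-fold lower (adjusted p = 0.0057). Its 4 single changes, from -0.23 to -0.38, were not called one by one, with adjusted p between 0.062 and 0.29. It was not called without the Nxnl1+/+ 50 lux array numbered 1, at -0.28 (adjusted p = 0.050), and was -0.25 without both 50 lux arrays numbered 1 (adjusted p = 0.083).

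The other 10 glycolytic enzymes were not called at their brightest probe sets in the mean over the 4 light comparisons. Hk1 and Hk2, the hexokinases that trap glucose in the cell, had changes of 0.15 (adjusted p = 0.19) and 0.04 (adjusted p = 0.82). The phosphofructokinase genes had -0.11 for Pfkl, -0.22 for Pfkm and 0.12 for Pfkp, with adjusted p between 0.14 and 0.41. Aldoa and Aldoc, the aldolases that split the sugar, had -0.21 (adjusted p = 0.084) and -0.18 (adjusted p = 0.12). Tpi1, which interconverts the triose phosphates, Pgk1, which makes ATP, and Pgam1, which acts after it, had 0.12, -0.05 and -0.14 (adjusted p = 0.36, 0.64 and 0.13). Over all 16 arrays Hk1 ran from 12.12 to 12.57, Pgk1 from 12.33 to 12.69 and Pgam1 from 13.01 to 13.40, and the bright-light and 50 lux arrays of all 3 overlapped. Pfkm ran from 8.95 to 9.72, with 5 of 11 bright-light arrays below every 50 lux array. Aldoc ran from 11.94 to 12.54, with 8 of 11 below. Their 95% intervals allow for changes of modest size, for example from -0.19 to 0.27 for Hk2 and from -0.46 to 0.01 for Pfkm.

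Pfkfb2 encodes a bifunctional enzyme that makes and breaks down the allosteric activator of phosphofructokinase. In Nxnl1-/- retinas Pfkfb2 measured 9.89, 10.59 and 10.69 at 50 lux, 9.21, 9.20 and 9.10 at 2500 lux, and 9.98 and 9.82 at 5000 lux. Pfkfb2 in Nxnl1+/+ retinas measured 10.92 and 10.93 at 50 lux, 9.85, 9.61 and 9.002 at 2500 lux, and 9.68, 9.996 and 9.72 at 5000 lux. Bright-light arrays ran from 9.002 to 9.996 with a median of 9.68, against 9.89 to 10.93 at 50 lux with a median of 10.69, and 9 of the 11 lay below every 50 lux array. Averaged over the 4 comparisons it changed by -1.07 ± 0.15, or 2.10-fold lower (adjusted p = 0.00013), the smallest adjusted p among the members. It was called in 3 of the 4 single comparisons, with -1.21 in Nxnl1-/- at 2500 lux (adjusted p = 0.0017), -1.44 in Nxnl1+/+ at 2500 lux (adjusted p = 0.0019) and -1.13 in Nxnl1+/+ at 5000 lux (adjusted p = 0.0093). In Nxnl1-/- retinas at 5000 lux it was -0.49 (adjusted p = 0.20). All 4 of its probe sets fell, the other 3 by 0.76, 0.85 and 0.99 (adjusted p = 0.016, 0.0095 and 0.017). Pfkfb3, the paralog with the stronger kinase activity, changed by -0.20 ± 0.09 and was not called (adjusted p = 0.12).

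**Figure D3:**
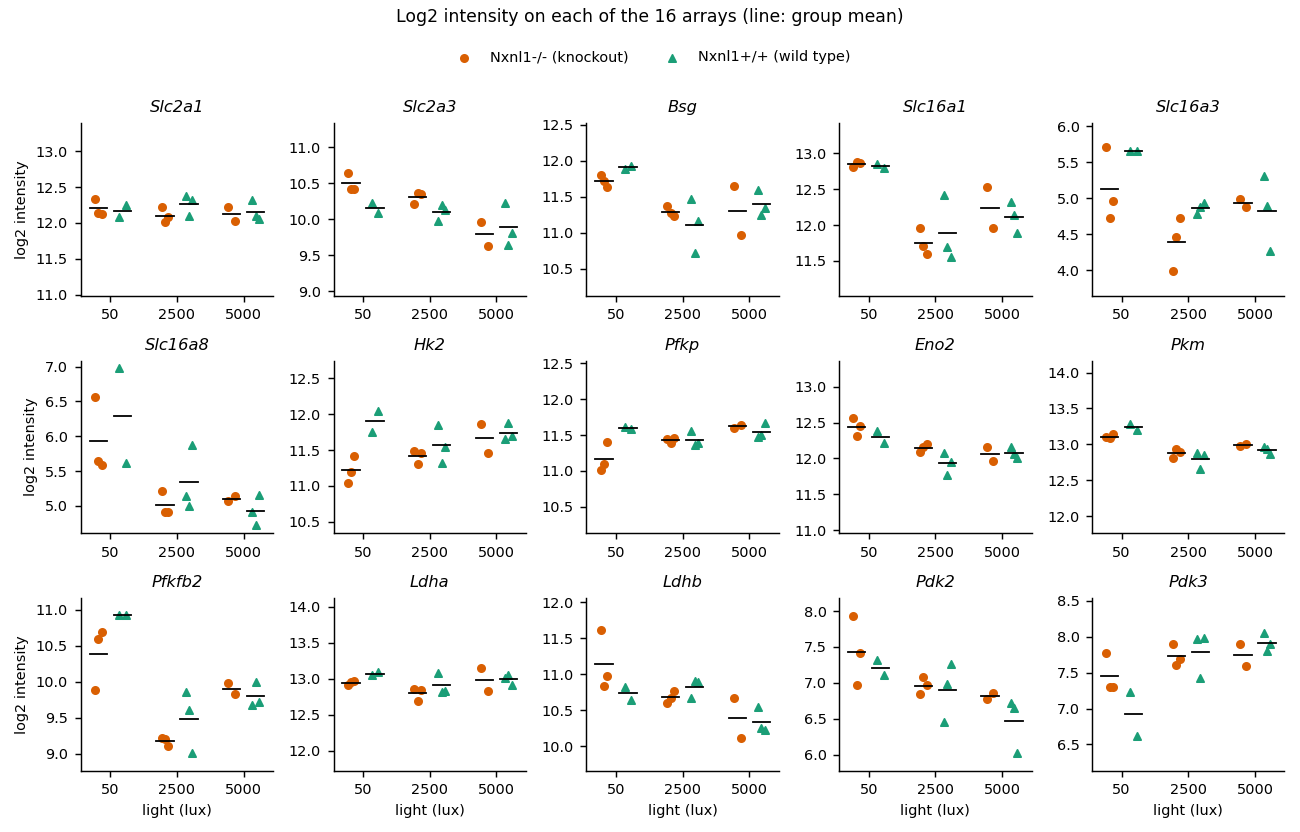
Log2 intensity of 15 members on each of the 16 arrays by light dose (x axis, lux), with Nxnl1-/- as circles, Nxnl1+/+ as triangles and lines at the group means. Slc16a1, Pkm and Eno2 are lower on every bright-light array than on any 50 lux array, Slc2a1 lies between 12.01 and 12.37 throughout, and the Hk2 and Pfkp arrays of the genotypes do not overlap at 50 lux, where neither difference passed the test.

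Lactate dehydrogenase interconverts pyruvate and lactate. Ldha, the subunit that favours lactate formation and is abundant in photoreceptors, changed by -0.09 ± 0.07 and was not called (adjusted p = 0.40), and its arrays lay between 12.69 and 13.15. Ldhb encodes the subunit that favours lactate use. Ldhb was at 11.61, 10.84 and 10.98 in Nxnl1-/- retinas at 50 lux, at 10.60, 10.67 and 10.76 at 2500 lux, and at 10.67 and 10.11 at 5000 lux. Ldhb in Nxnl1+/+ retinas measured 10.83 and 10.65 at 50 lux, 10.67, 10.90 and 10.88 at 2500 lux, and 10.54, 10.24 and 10.22 at 5000 lux. The first Nxnl1-/- array at 50 lux was the highest of all. The mean change of Ldhb was -0.38 ± 0.13, or 1.30-fold lower (adjusted p = 0.040), and in Nxnl1-/- retinas at 5000 lux it was -0.75 (adjusted p = 0.040). Its other 3 probe sets gave -0.34, -0.40 and -0.37 (adjusted p = 0.070, 0.049 and 0.10). The mean was called in 5 of the 16 fits that left out 1 array, and was -0.22 without both 50 lux arrays numbered 1 (adjusted p = 0.27).

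Of the genes that govern pyruvate entry, the kinase genes Pdk3 and Pdk2 passed the test, in opposite directions, and the others did not. Pdk3 encodes a pyruvate dehydrogenase kinase, which phosphorylates and inhibits the complex. On the Nxnl1-/- arrays Pdk3 stood at 7.77, 7.31 and 7.30 after 50 lux, 7.90, 7.61 and 7.68 after 2500 lux, and 7.89 and 7.59 after 5000 lux. Pdk3 in Nxnl1+/+ retinas measured 7.23 and 6.62 at 50 lux, 7.97, 7.43 and 7.98 at 2500 lux, and 8.06, 7.80 and 7.89 at 5000 lux. The Nxnl1+/+ 50 lux arrays were the lowest, and 7 of 11 bright-light arrays lay above every 50 lux array. The mean change was 0.61 ± 0.13, or 1.52-fold higher (adjusted p = 0.0040), and it stayed called without any 1 array. The rise was called in Nxnl1+/+ retinas, by 0.87 at 2500 lux (adjusted p = 0.021) and 1.00 at 5000 lux (adjusted p = 0.010), and was 0.28 at each dose in Nxnl1-/- retinas (adjusted p = 0.36 and 0.41). Both Nxnl1+/+ calls rest on the 50 lux array numbered 2, the lowest of all: without it the changes were 0.57 (adjusted p = 0.25) and 0.69 (adjusted p = 0.15). The 2500 lux call was also lost without the Nxnl1+/+ 2500 lux array numbered 1 or 3 (adjusted p = 0.057 and 0.074). The difference between genotypes in this response is tested further on.

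Pdk2 encodes another kinase of the complex. The Pdk2 values in Nxnl1-/- retinas were 7.93, 6.97 and 7.41 at 50 lux, 6.84, 7.08 and 6.97 at 2500 lux, and 6.77 and 6.86 at 5000 lux. Pdk2 in Nxnl1+/+ retinas measured 7.32 and 7.10 at 50 lux, 6.45, 6.98 and 7.27 at 2500 lux, and 6.72, 6.64 and 6.03 at 5000 lux. The groups overlapped, with 7 of 11 bright-light arrays below every 50 lux array. Its mean change was -0.54 ± 0.17, or 1.45-fold lower (adjusted p = 0.029), with no single comparison called. The call was lost without the Nxnl1-/- 50 lux array numbered 1 or 3 or either Nxnl1+/+ 50 lux array, with adjusted p up to 0.14. The change was -0.36 without both 50 lux arrays numbered 1 (adjusted p = 0.23). Pdk1 had -0.12 (adjusted p = 0.55). Pdha1 and Pdhb, the subunits of pyruvate dehydrogenase, had -0.01 and 0.01, and Mpc1, a subunit of the mitochondrial pyruvate carrier, had 0.04, with adjusted p between 0.81 and 0.94. The arrays of Pdhb stayed between 10.79 and 11.04, those of Pdha1 between 9.03 and 9.52, and those of Mpc1 between 10.05 and 10.59.

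For several members, different probe sets disagreed. The dimmer Hk1 probe set rose by 0.36 (adjusted p = 0.0048) where the brightest gave 0.15. Another Pfkl probe set rose by 1.05 (adjusted p = 0.036), while its remaining 2 gave -0.11 and -0.10. The 5 Aldoa probe sets ran from -0.12 to -0.31, of which 1 was called (-0.26, adjusted p = 0.037). With the probe sets of a gene averaged, Pfkp was called higher in the mean, by 0.36 (limma, adjusted p = 0.032). In Nxnl1-/- retinas at 2500 lux that Pfkp average rose by 0.68 (adjusted p = 0.012). Averaged so, Hk1 and Aldoa were also called in the mean, at 0.25 and -0.22 (adjusted p = 0.012 and 0.034). Probe sets that read a near-identical pseudogene or paralog as well as the named gene cannot be told from those that do not in these files.

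**Figure D4:**
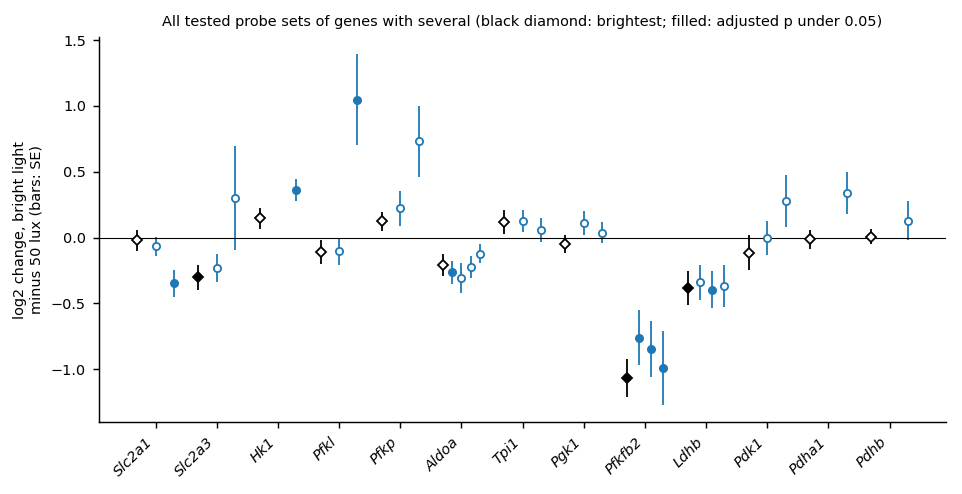
Log2 change after bright light (mean of the 4 comparisons ± SE) for all tested single-symbol probe sets of the 13 members that have several, with the brightest as a black diamond and others as circles, filled where adjusted p was under 0.05. The 4 Pfkfb2 probe sets all lie between -0.76 and -1.07, whereas those of Slc2a1, Hk1 and Pfkl differ in call.

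Taken one genotype and dose at a time, fewer members were called. At 2500 lux in Nxnl1-/- retinas 0 of 28 rose and 2 fell (Slc16a1 and Pfkfb2), beside 8.6% and 10.7% of all probe sets. At 5000 lux in Nxnl1-/- retinas 1 rose (Pfkp, by 0.45, adjusted p = 0.032) and 2 fell (Slc2a3 and Ldhb), beside 5.54% and 5.88%. Nxnl1+/+ retinas at 2500 lux had 1 that rose (Pdk3) and 4 that fell (Bsg, Slc16a1, Pkm and Pfkfb2), beside 6.72% and 5.04%. In Nxnl1+/+ retinas at 5000 lux 1 rose (Pdk3) and 2 fell (Slc16a8 and Pfkfb2), beside 5.97% and 4.52%. The members' medians in these 4 comparisons were -0.17, -0.13, -0.16 and -0.16, against -0.02, -0.02, 0.01 and 0.01 for all probe sets. In Nxnl1-/- retinas the share of members called was thus below that of all probe sets at 2500 lux and near it at 5000 lux. Counts this small are not read as a result about the members. The 3 calls in Nxnl1-/- retinas at 5000 lux rest on few arrays: without the Nxnl1-/- 50 lux array numbered 1 none was called, without the Nxnl1-/- 5000 lux array numbered 2, which had a high lens sum, Ldhb was at -0.47, Slc2a3 at -0.53 and Pfkp at 0.43, all not called (adjusted p = 0.37, 0.19 and 0.19), and without the Nxnl1-/- 5000 lux array numbered 1 there were 8. In Nxnl1+/+ retinas, leaving out the 50 lux array numbered 1 took the calls to 2 at 2500 lux and to 1 at 5000 lux. The Bsg and Slc16a1 calls at 2500 lux were each lost without either Nxnl1+/+ 50 lux array or without the 2500 lux array numbered 2 or 3, with adjusted p up to 0.14 and 0.13. The Pfkfb2 call at 5000 lux was lost without either Nxnl1+/+ 50 lux array (adjusted p = 0.078 and 0.067) at an unchanged -1.13. The calls of Pfkfb2 at 2500 lux in both genotypes and of Slc16a1 in Nxnl1-/- retinas at 2500 lux held in all 16 fits that left out 1 array, and the other calls held in 7 to 15 of them, with Ldhb in Nxnl1-/- retinas at 5000 lux in the fewest.

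Between 2500 and 5000 lux no member was called in either genotype, beside 0.0772% of all probe sets in Nxnl1-/- and 0% in Nxnl1+/+ retinas (limma). At an unadjusted p under 0.05 there were 2 members in Nxnl1-/- and 1 in Nxnl1+/+ retinas. The Nxnl1-/- pair was Pfkfb2, higher at 5000 than at 2500 lux by 0.73, and Slc2a3, lower by 0.51 (adjusted p = 0.27 and 0.24). In Nxnl1+/+ retinas it was Ldhb, with -0.49 (adjusted p = 0.59).

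No member differed between genotypes past the threshold at any dose. Beside counts of 0 of 28 members, the share of all probe sets called in limma was 0.326% at 50 lux, 0.0943% at 2500 lux, 0.00429% at 5000 lux and 0.0172% for the mean of the 3 doses. At an unadjusted p under 0.05 there were 4 members at 50 lux, 0 at 2500 lux, 0 at 5000 lux and 1 for the mean of the doses. The smallest adjusted p of a member was 0.14 at 50 lux, 0.91 at 2500 lux, 1 at 5000 lux and 0.56 for the mean.

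Those 4 at 50 lux were Hk2, Pfkp, Pdk3 and Pfkfb2. Hk2 encodes the hexokinase that photoreceptors use alongside Hk1. In Nxnl1-/- retinas Hk2 measured 11.04, 11.19 and 11.42 at 50 lux, 11.48, 11.30 and 11.46 at 2500 lux, and 11.86 and 11.46 at 5000 lux. Hk2 in Nxnl1+/+ retinas measured 11.75 and 12.05 at 50 lux, 11.85, 11.32 and 11.54 at 2500 lux, and 11.65, 11.88 and 11.70 at 5000 lux. At 50 lux the 3 Nxnl1-/- arrays lay below both Nxnl1+/+ arrays, and after bright light the genotypes overlapped. The difference at 50 lux was -0.68 ± 0.18 (95% interval -1.06 to -0.30, adjusted p = 0.14), at 2500 lux -0.15 ± 0.16 and at 5000 lux -0.08 ± 0.18. Weighting arrays by their quality took the 50 lux difference to an adjusted p of 0.047, and no other setting tried made a member's genotype difference pass the threshold.

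Pfkp encodes the platelet-type phosphofructokinase, the form common in brain. Pfkp was at 11.01, 11.09 and 11.41 in Nxnl1-/- retinas at 50 lux, at 11.45, 11.38 and 11.45 at 2500 lux, and at 11.60 and 11.65 at 5000 lux. Pfkp in Nxnl1+/+ retinas measured 11.62 and 11.59 at 50 lux, 11.55, 11.37 and 11.39 at 2500 lux, and 11.47, 11.51 and 11.66 at 5000 lux. The genotypes again separated at 50 lux and overlapped at 2500 and 5000 lux. The 50 lux difference was -0.43 ± 0.12 (adjusted p = 0.17), and the gene's other 2 probe sets gave -0.98 each (adjusted p = 0.098 and 0.34). Pfkfb2 differed by -0.54 ± 0.25 (adjusted p = 0.34) and Pdk3 by 0.54 ± 0.22 (adjusted p = 0.29) at 50 lux, with no overlap of the groups. In all, 15 of 28 members had 50 lux groups of 3 and 2 arrays that did not overlap, beside 33.8% of all probe sets tested, and 0.326% of all probe sets were called. The summed lens level also separated these groups, at 10.81 to 12.78 in Nxnl1-/- against 5.85 and 7.39 in Nxnl1+/+ retinas, and its part in these differences was not tested.

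For Bsg and Slc2a1, which encode the basigin and GLUT1 proteins linked to the short Nxnl1 product, the genotype differences in RNA were small against their error. Bsg differed by -0.20 ± 0.21 at 50 lux, 0.18 ± 0.19 at 2500 lux and -0.09 ± 0.21 at 5000 lux. Slc2a1 differed by 0.04 ± 0.13, -0.16 ± 0.12 and -0.03 ± 0.13. Averaged over the doses, the 95% intervals were -0.29 to 0.22 for Bsg and -0.21 to 0.11 for Slc2a1. Slc16a1 had 0.01 with an interval of -0.27 to 0.29.

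**Figure D5:**
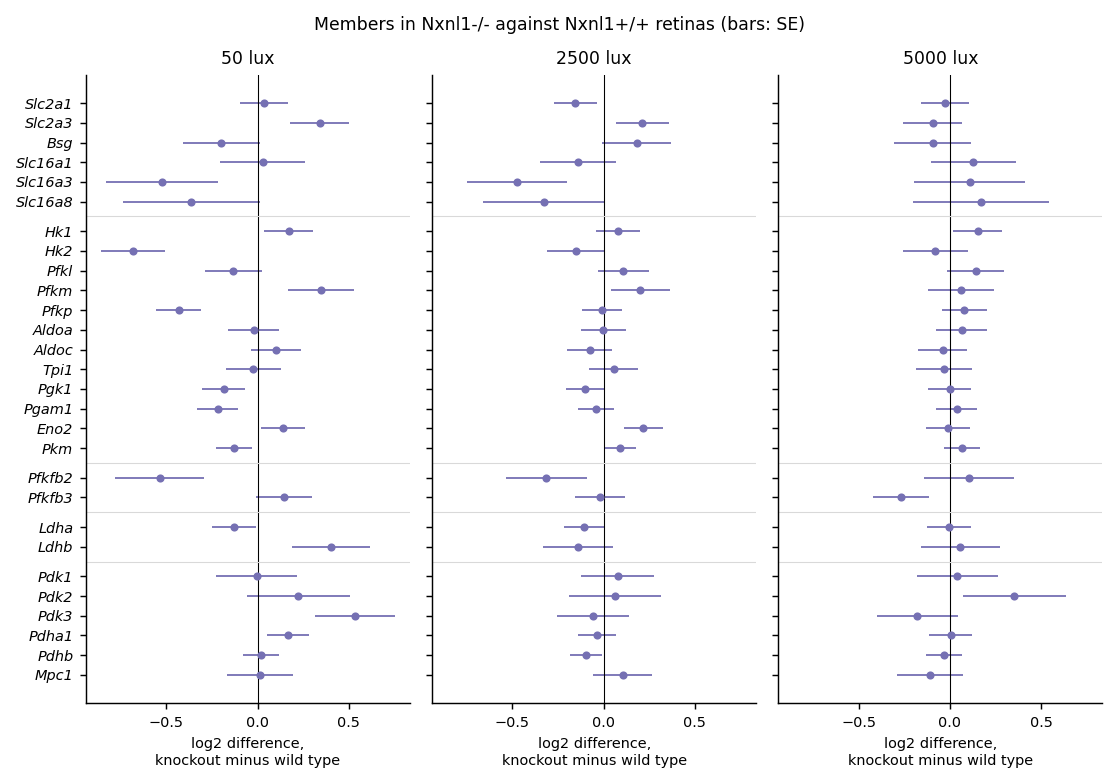
Log2 difference, Nxnl1-/- minus Nxnl1+/+, of each tested member at 50, 2500 and 5000 lux, with bars for the SE of the limma fit. At 50 lux Hk2 is at -0.68, Pfkfb2 at -0.54, Pdk3 at 0.54 and Pfkp at -0.43, and no difference passed an adjusted p of 0.05.

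Whether the light response itself differed between genotypes was tested by the interaction term. No member was called, beside 0.0472% of all probe sets for the 2500 lux response and 0.0257% for the 5000 lux response, with 2 and 3 members at an unadjusted p under 0.05. For Hk2 the response was larger in Nxnl1-/- by 0.53 ± 0.24 at 2500 lux and 0.60 ± 0.25 at 5000 lux (adjusted p = 0.54 and 0.59). For Pfkp it was larger by 0.42 ± 0.17 and 0.51 ± 0.17 (adjusted p = 0.49 and 0.53). Pdk3, called in Nxnl1+/+ retinas and not in Nxnl1-/- retinas, had interactions of -0.59 ± 0.29 and -0.71 ± 0.31 (adjusted p = 0.58 and 0.60), so its responses were not shown to differ. Each interaction uses the same 50 lux arrays as the genotype difference at 50 lux, so these values are not separate evidence.

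Genes of neighbouring routes were read beside the members in the mean bright-light comparison. Over all probe sets tested 13.7% rose and 15.1% fell there. The lists are short, and their counts are not read as responses of whole routes. Among further glycolysis and monocarboxylate isoforms 1 of 8 tested rose and 2 fell: Hkdc1, a hexokinase-like gene, by 0.82 (adjusted p = 0.0024), and Slc16a6, a monocarboxylate transporter family gene, with -0.84 (adjusted p = 1.9e-05) and Eno3, the muscle enolase, with -0.36 (adjusted p = 0.030). In the pentose phosphate pathway, which makes NADPH from the same glucose phosphate, 2 of 6 rose and 0 fell, Pgls by 0.60 (adjusted p = 0.004) and Pgd by 0.32 (adjusted p = 0.024). None of the 6 remaining pyruvate dehydrogenase complex genes was called in limma, with 0 at an unadjusted p under 0.05. In the tricarboxylic acid cycle 2 of 17 rose and 1 fell, namely Idh2, the mitochondrial NADP-linked isocitrate dehydrogenase, by 0.80 (adjusted p = 2.1e-05), Suclg2 by 0.87 (adjusted p = 5.1e-05) and Dlst with -0.21 (adjusted p = 0.036). Of 11 glycogen genes 2 rose and 1 fell, with Pgm2 at 0.66, Gyg, which primes glycogen, at 0.61 and Pygb, the brain glycogen phosphorylase, at -0.66 (adjusted p = 0.00019, 0.00043 and 0.00011). Of 15 genes of hypoxia-inducible factors and their classic targets 0 rose and 3 fell, Epas1 with -0.44, Ndrg1 with -0.32 and Egln1 with -0.30 (adjusted p = 0.0014, 0.008 and 0.014). That list's summed level ran from 14.35 to 14.51 after bright light against 14.46 to 14.59 at 50 lux.

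Cell type markers moved in the same comparison, where 15.1% of all probe sets tested fell and 13.7% rose. All 11 rod markers tested fell, with a median of -0.55, and their summed level ran from 16.75 to 17.11 after bright light against 17.32 to 17.42 at 50 lux, with no overlap. Of 8 cone markers 4 fell and 1 rose, and the summed level ran from 13.18 to 13.76 against 13.68 to 13.93. Of 12 Müller glia markers 4 rose, among them Gfap (5.19-fold), and 4 fell. In Nxnl1+/+ retinas at 2500 lux, where 4 of these rose and 3 fell, Rlbp1 changed by -1.37 and Glul by -0.99. Of 7 microglia and macrophage markers 4 rose and 0 fell, led by Lgals3, and their summed level was 10.75 to 11.67 against 8.30 to 9.36, while Aif1, C1qc, Itgam and Ptprc were below the filter on every array. Among the 7, Cd68 ran from log2 2.21, the lowest value of the series, to 6.36 and was over the filter on 11 of the 16 arrays. Its place among the markers tested may thus have been partly set by the filter. Of 12 markers of inner retinal neurons 6 fell, among them Rbpms by 0.92 and Thy1 by 0.83, and 0 rose, with a median of -0.28. Their summed level ran from 13.53 to 14.08 against 14.00 to 14.38, and it stood beside the lower levels of Eno2 and Slc2a3, genes typical of neurons. Of 6 endothelial and pericyte markers 1 rose (Kdr, by 0.85), and the 1 blood marker tested, Hba-a2, rose by 0.79. Hba-a2 lay between log2 2.95 and 4.13 and was over the filter on only 4 arrays, all after bright light. Its rise thus lies near the lowest values and was partly set by the filter. The lower Slc16a1, Pkm, Eno2 and Pfkfb2 levels stood beside lower rod marker levels on the same arrays. In whole retina, fewer cells of a type and less RNA per cell cannot be told apart, and the part of cell composition in the members' changes was not tested.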

How the data were processed

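RNA of 16 mouse retina samples was read on Affymetrix 3' arrays. The authors deposited an intensity for each probe set on a linear scale, made with GCRMA (background correction, normalization and summarisation) per the submitters' processing notes; no version or settings were found in the labels. Of each array, 30.9% to 31.5% lay at a common lowest intensity of 4.62. Precision is limited by how many arrays there are. GCRMA pulls dim probe sets towards that value, so changes near it are understated or unstable.

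Log2 was taken with no further scaling. Probe sets over log2 4 on at least 2 of 16 arrays were tested (23320 of 45037). The brightest probe set with 1 symbol stood for each gene. All arrays entered 1 linear model of group means (limma 3.58.1, R 4.3.3), moderated by empirical Bayes without a trend on intensity, with 10 residual and 3.18 prior degrees of freedom. Each comparison was 1 of 13 two-sided contrasts, adjusted by Benjamini-Hochberg over all probe sets tested, with a threshold of 0.05. Errors are SE of the fit unless named SD. The p-values measure the spread between arrays labelled as biological replicates. The code was tested on simulated data.

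The members and lists were chosen with earlier results of these data known. All 34 members are reported, those called in any light, genotype or interaction contrast with every array, Bsg, Slc2a1 and Nxnl1 always, and from each list of neighbouring routes up to 4 called genes with the smallest p in the mean bright-light contrast. Alternatives were quantile scaling, median centring, no filter, log2(value + 16), an intensity trend, array weights, the compared groups alone, a mean over probe sets, the replicate number as a block, each array left out and, chosen after seeing the data, both 50 lux arrays numbered 1 or 3 bright-light arrays with high lens marker sums left out. Replicate numbers were not used as pairs, since same-numbered arrays of different groups did not deviate together in all cases. No array was identical to another.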

Additional observations from a re-analysis of the deposited data

How the results depend on the processing

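The 24 calls of members kept their direction in every alternative. All 24 also kept their call under quantile scaling, median centring, an intensity trend, log2(value + 16) and the replicate block. Fewer did under a mean over probe sets (22), array weights (21), no filter on low values (15), the compared groups alone (15), without the 3 bright-light arrays with high lens sums (16) and without both 50 lux arrays numbered 1 (10). The count of members called in the mean over both genotypes and doses (11) was 7 with no filter, 7 without the 3 arrays with high lens sums and 4 without both 50 lux arrays numbered 1, where fewer 50 lux arrays remained. For 2500 lux in Nxnl1-/- retinas (2) it was 4 under quantile scaling, the intensity trend, array weights and the replicate block. For 5000 lux in Nxnl1-/- retinas (3) it was 6 under the replicate block and 0 with the compared groups alone, with array weights, without the 3 arrays with high lens sums and without both 50 lux arrays numbered 1. For 2500 lux in Nxnl1+/+ retinas (5) it was 2 with no filter, with the compared groups alone and without both 50 lux arrays numbered 1. For 5000 lux in Nxnl1+/+ retinas (3) it was 1 with the compared groups alone, 5 with a mean over probe sets and 11 with array weights. Array weights also gave 1 call (Hk2) in Nxnl1-/- against Nxnl1+/+ retinas at 50 lux, where there was 0. The cause of these shifts was not tested, beyond the fewer arrays where groups were left out. Leaving out each array in turn gave 6 (without the Nxnl1+/+ 50 lux array numbered 1) to 14 (without the Nxnl1-/- 5000 lux array numbered 1) calls in the mean bright-light contrast, 2 to 3 and 0 to 8 at 2500 and 5000 lux in Nxnl1-/- retinas, 2 to 5 and 1 to 4 at 2500 and 5000 lux in Nxnl1+/+ retinas, and 0 in the other 8 contrasts. Where this left a group with 1 array, that array was assumed to vary like the other groups. Replicate numbers were not taken to pair the samples, since no label says what they share and not every pair deviated together: over 36 pairs of same-numbered arrays the correlation of deviations from the group means ran from -0.24 to 0.69, and 21 were over 0.1. Between genotypes at the same dose it was 0.05 to 0.69, with 6 of 7 pairs over 0.1. What these pairs share was not tested.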
